A study of Rattus norvegicus with 7 samples.

Results

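Hemoglobin and other red cell genes were described in perfused rat lungs. They comprised 8 genes that make or serve the red cell: the globin chains Hbb and Hba-a3, Alas2, Slc4a1, Bpgm, Ahsp, Gypc and Tfrc. Every probe set with a single one of these symbols in the platform annotation was taken, which gave 11 probe sets of 31042 on the array and 8 of 14217 genes with a probe set of their own. The genes were chosen by their role with their measured levels on these arrays already known, so the difference between the groups is given for them as a description and supports nothing further.

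Red cells carry oxygen on hemoglobin, a tetramer of alpha and beta globin chains that each hold a heme group. Mature mammalian red cells have no nucleus, and the youngest of them in blood, the reticulocytes, still hold globin and heme synthesis transcripts. Perfusing the lung vessels washes blood out, and blood left in a lung adds its RNA to that of the tissue.

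The 7 arrays held total RNA of right lungs from Dahl salt-sensitive rats weighing 250 to 350 g, taken at the 3.5-week time point of the study. In the HSU_Sor group (4 arrays) the rats were kept at an inspired oxygen of about 9.5% and given SU-5416, an inhibitor of VEGF receptors, and sorafenib, an inhibitor of RAF and receptor tyrosine kinases. In the HSU group (3 arrays) they were kept at the same oxygen and given SU-5416 alone, so all 7 animals shared hypoxia and SU-5416. Animals were bled out under anesthesia and the pulmonary vessels were perfused with saline through the pulmonary artery, per the labels' protocols, which give no measure of the blood that remained. Each array was taken to be a separate rat, as the study design counts rats per group. Titles carry the letter b in every HSU replicate and in no HSU_Sor replicate, so what this letter marks and the treatment cannot be told apart. Normoxic rats and rats in hypoxia alone, named in the study design, were not analysed here.

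All values are the deposited log2 expression of a probe set, on which a step of 1 is a doubling. Array medians lay between 3.59 and 3.68 and lower quartiles between 2.37 and 2.42, and probe sets near these levels are at a floor where differences are compressed. The lung marker Sftpc, a surfactant protein of alveolar cells, was at 15.39 to 15.54 on the HSU_Sor arrays and at 15.46 to 15.49 on the HSU arrays. The other brightest lung markers, Scgb1a1 of airway secretory cells and the surfactant protein Sftpa1, differed by 0.00 and -0.12, and Pecam1, an endothelial adhesion molecule, by -0.04. Of the 11 lung markers measured, 2 had an unadjusted p below 0.05 in the limma fit described below, beside 3.51% of all probe sets. Both had an adjusted p = 0.91. Their groups did not overlap, which was so for 2.77% of all probe sets. The endothelial gene Vwf was at 12.00 to 12.29 in HSU_Sor and at 11.72 to 11.87 in HSU, and the alveolar water channel Aqp5 at 13.10 to 13.30 in HSU_Sor and at 12.81 to 12.92 in HSU, both named after their values were seen. With 4 arrays against 3, the number of arrays limits every value.

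The globins and Alas2 were far lower on 2 of the 4 HSU_Sor arrays, replicates 3 and 4, than on the other 5 arrays, while Gypc and Tfrc were not. The brighter Bpgm probe set was also lowest on these 2 arrays, but by less, at 9.33 and 9.09. HSU_Sor 2, at 9.93, was below every HSU array for this set as well. HSU_Sor 1 had the highest value of all 7 arrays for the globins, Alas2 and this Bpgm probe set. The 3 HSU arrays lay within 0.29 of each other for Hbb and 0.14 for Hba-a3, but within 1.35 for Alas2. Of the 11 probe sets, 8 had a mean above the median of all probe sets, and the 2 of Slc4a1 and the 1 of Ahsp were below it.

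**Figure D1:**
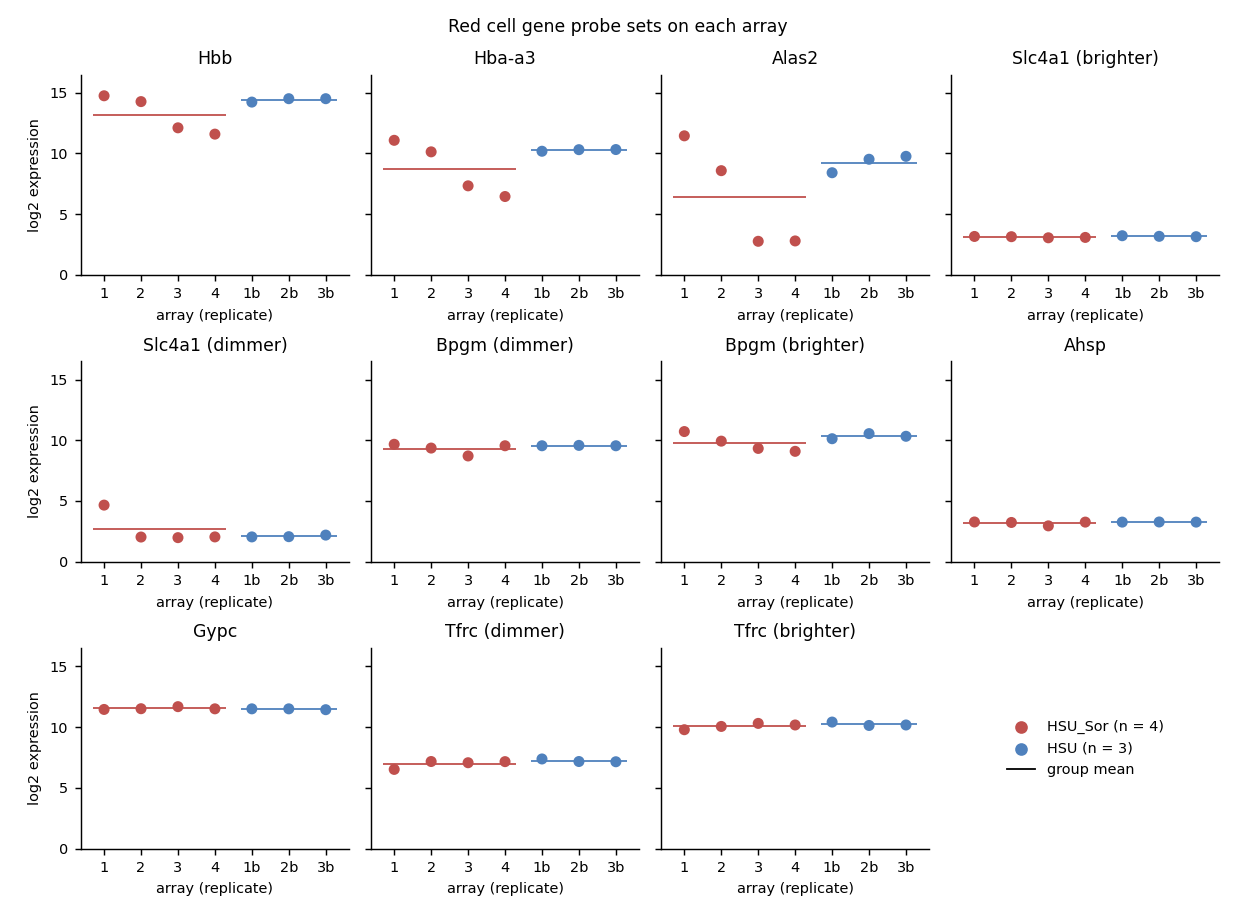
Log2 expression of the 11 probe sets on each array, with HSU_Sor (4 arrays, red) left of HSU (3 arrays, blue) and group means as lines. Brighter and dimmer tell apart the probe sets of a gene with more than 1. For Hbb, HSU_Sor 3 and 4 lay at 12.11 and 11.59, below every HSU array, while HSU_Sor 1 at 14.75 lay above them.

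Hbb encodes a beta chain of adult hemoglobin. It was at 14.75, 14.27, 12.11 and 11.59 on HSU_Sor arrays 1 to 4, against 14.23, 14.51 and 14.51 on HSU arrays 1b, 2b and 3b. HSU_Sor 3 and 4 were thus 4.33-fold and 6.23-fold below the lowest HSU array, HSU_Sor 1 was above the highest, and the groups overlapped. The mean was 13.18 ± 1.56 (SD, n = 4) in HSU_Sor and 14.42 ± 0.16 (SD, n = 3) in HSU, a log2 difference of -1.24 ± 0.85 (SE). Its probe set carries the x suffix of sets that can bind related transcripts, so beta chain copies cannot be told apart in it.

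Hba-a3, an alpha globin gene, was also highest on HSU_Sor 1 and lowest on HSU_Sor 4, over a wider range. It was at 11.08, 10.13, 7.33 and 6.45 in HSU_Sor, against 10.18, 10.31 and 10.32 in HSU. The fall below the lowest HSU array was 7.19-fold on HSU_Sor 3 and 13.3-fold on HSU_Sor 4, and HSU_Sor 1 was 0.76 above the highest HSU array on the log2 scale. The difference of the group means was -1.52 ± 1.19 (SE).

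A further 5 probe sets are annotated with more than 1 adult globin symbol, 3 of alpha and 2 of beta chains, and are not assigned to a gene here. The 3 alpha sets were at 14.64 to 15.47 on HSU_Sor 1, 14.21 to 15.11 on HSU_Sor 2, 12.46 to 13.40 on HSU_Sor 3 and 11.81 to 13.02 on HSU_Sor 4, against 14.33 to 15.24 on the HSU arrays. The 2 beta sets were at 14.50 and 15.15 on HSU_Sor 1, 13.63 and 14.43 on HSU_Sor 2, 10.22 and 12.25 on HSU_Sor 3 and 9.67 and 11.02 on HSU_Sor 4. On the HSU arrays the beta sets lay between 13.58 and 14.92. All 5 had their lowest value on HSU_Sor 4 and the next lowest on HSU_Sor 3, and their log2 differences lay between -1.88 and -0.94. The other 4 globin genes measured, the embryonic and fetal chains Hbz, Hbe1, Hbe2 and Hbg1, stayed between 1.64 and 2.47 on all 7 arrays.

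The 150 bases before the start of both globin genes are shown because these genes moved together over the arrays, with those of Tfrc and Gypc, which did not move with them. RefSeq promoters (build GRCr8) were found for 6 of the 8 genes, not for Slc4a1 and Ahsp, and those of Alas2 and Bpgm are not printed because the listed start is not the outer end of the gene. Capitals mark CCAAT, the CACCC box CCACACCC, a GATA site (AGATAA or TGATAA, or with G as the last base) and a TATA box (TATAAA or CATAAA), searched on both strands. Hbb lies at chr1:167663722-167663871, Hba-a3 at chr10:15816944-15817093, Tfrc at chr11:81690319-81690468 and Gypc at chr18:24467593-24467742, all on the minus strand.
Hbb: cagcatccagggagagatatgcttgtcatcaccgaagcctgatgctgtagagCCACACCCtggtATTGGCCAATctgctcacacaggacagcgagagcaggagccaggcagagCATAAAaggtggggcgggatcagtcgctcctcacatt
Hba-a3: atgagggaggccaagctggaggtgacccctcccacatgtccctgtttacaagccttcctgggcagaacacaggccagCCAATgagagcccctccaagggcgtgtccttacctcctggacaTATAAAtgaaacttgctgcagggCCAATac
Tfrc: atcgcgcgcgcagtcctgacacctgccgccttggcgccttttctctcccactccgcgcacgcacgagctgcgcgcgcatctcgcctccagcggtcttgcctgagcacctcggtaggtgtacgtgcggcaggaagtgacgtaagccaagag
Gypc: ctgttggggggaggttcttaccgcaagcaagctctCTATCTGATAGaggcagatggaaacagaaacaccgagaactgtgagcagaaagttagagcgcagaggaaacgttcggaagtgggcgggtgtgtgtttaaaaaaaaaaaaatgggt

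In the Hbb window the CACCC box starts 98 bases before the gene's start, a pair of CCAAT words, 1 on each strand, 86 and 81 bases before it and CATAAA 37 bases before it. In the Hba-a3 window TATAAA starts 30 bases before the gene's start and CCAAT 73 and 7 bases before it. The Tfrc window holds none of these words. The Gypc window holds 2 GATA words, 1 on each strand and overlapping, that start 115 and 110 bases before the gene's start, and neither globin window holds one. In the windows not printed, that of Alas2, which moved with the globins, holds the GATA word AGATAA 136 bases before the listed start. That of Bpgm holds CCAAT 76 bases before it. Of 33469 RefSeq windows of the same length, 23.5% hold CCAAT, 1.79% the CACCC box, 13.6% a TATA word and 16.6% a GATA word. The matches describe letters in these windows and were not tied to any factor.

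Alas2, the red cell form of the first enzyme of heme synthesis, had the widest range of the members, 8.69 on the log2 scale over the 7 arrays. It was at 11.45, 8.58, 2.76 and 2.79 in HSU_Sor, against 8.41, 9.52 and 9.76 in HSU. HSU_Sor 3 and 4 were near the floor, so the fall below the lowest HSU array, 50.1-fold and 49.0-fold, is compressed by an unknown amount. HSU_Sor 1 was 1.69 above the highest HSU array. The group means differed by -2.83 ± 2.36 (SE).

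The other enzymes of heme synthesis were taken from a list of 13 genes, of which 11 besides Alas2 were measured and 10 lay above the median level. Their median log2 difference was -0.01, the same as the -0.01 of all 31042 probe sets. The 3 brightest were Alas1, the form of the first enzyme used by other tissues, with a difference of -0.14 ± 0.19 (SE), Cpox with 0.19 ± 0.11 and Alad with -0.09 ± 0.13. Fech, which inserts iron into the heme ring, was at 10.94, 10.27, 9.59 and 8.86 in HSU_Sor and at 10.11, 10.38 and 10.36 in HSU. Its highest value was on HSU_Sor 1 and its lowest on HSU_Sor 4, and it was named with its values known. Urod of the same list lay at 10.66 to 10.88 in HSU_Sor and at 10.55 to 10.99 in HSU.

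**Figure D2:**
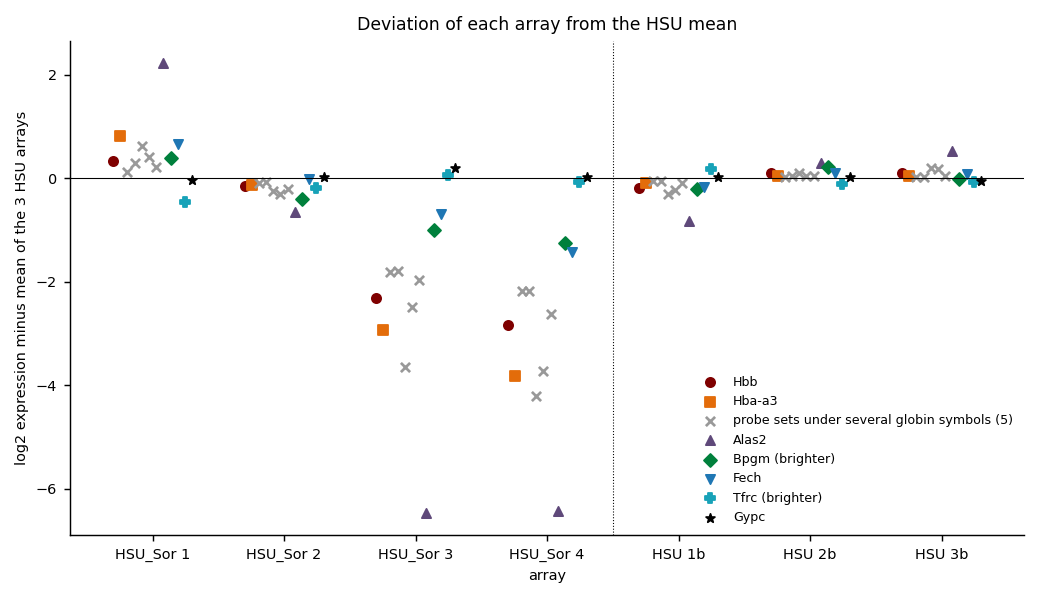
Log2 expression of each array minus the mean of the 3 HSU arrays (y axis), for red cell genes and for the 5 probe sets annotated with several globin symbols, with HSU_Sor arrays left of HSU arrays. Globins, Alas2, the brighter Bpgm probe set and Fech lay below 0 on HSU_Sor 3 and 4, and Gypc and the brighter Tfrc probe set stayed near 0 there.

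Bpgm makes 2,3-bisphosphoglycerate, which lowers the oxygen affinity of hemoglobin. Its brighter probe set was at 10.72, 9.93, 9.33 and 9.09 in HSU_Sor, against 10.13, 10.55 and 10.33 in HSU, a difference of -0.57 ± 0.40 (SE). This difference was -0.34 without HSU_Sor replicate 4, -0.89 without HSU_Sor replicate 1 and -0.01 without HSU_Sor 3 and 4 together. Its dimmer probe set was at 9.67, 9.36, 8.71 and 9.55 in HSU_Sor, against 9.55, 9.58 and 9.55 in HSU. Both sets were lower on HSU_Sor 3 than on any HSU array, but on HSU_Sor 4 only the brighter one was, by 2.06-fold.

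Ahsp, a chaperone of free alpha globin, was at 3.27, 3.23, 2.95 and 3.26 in HSU_Sor and at 3.26, 3.27 and 3.26 in HSU. These values lie below the median of all probe sets, and the largest gap, on HSU_Sor 3, was 0.31 below the lowest HSU array.

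Slc4a1, the band 3 anion exchanger of the red cell membrane, had a pair of dim probe sets that disagreed. The brighter was at 3.16, 3.14, 3.05 and 3.08 in HSU_Sor, against 3.22, 3.17 and 3.14 in HSU, a difference of -0.07 ± 0.03 (SE). The dimmer was at 4.66, 2.03, 1.98 and 2.04 in HSU_Sor, against 2.04, 2.06 and 2.19 in HSU, so it was raised on HSU_Sor 1 alone, the array on which Hbb, Hba-a3 and Alas2 were highest. Its difference of 0.58 ± 0.71 (SE) was -0.08 without HSU_Sor replicate 1.

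Gypc, glycophorin C, links the red cell membrane to its skeleton and is made by other cells as well. It was at 11.46, 11.52, 11.69 and 11.51 in HSU_Sor, against 11.51, 11.51 and 11.44 in HSU, and did not fall on HSU_Sor 3 and 4. Its difference was 0.06 ± 0.06 (SE).

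Tfrc, the transferrin receptor, takes up iron in red cell precursors and in other growing cells. Its brighter probe set was at 9.79, 10.06, 10.31 and 10.18 in HSU_Sor, against 10.42, 10.14 and 10.18 in HSU, and its dimmer one at 6.52, 7.17, 7.07 and 7.16 against 7.38, 7.17 and 7.15. The lowest value of both was on HSU_Sor 1, where the globins were highest. The differences were -0.16 ± 0.14 (SE) for the brighter set and -0.26 ± 0.18 for the dimmer one. Without HSU_Sor replicate 1 they were -0.06 for the brighter and -0.10 for the dimmer set, and without HSU replicate 1b the brighter differed by -0.08. Without HSU_Sor 3 and 4 together they were -0.32 and -0.39, and with array weights -0.43 and -0.54, in the same order.

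In the limma fit over all 31042 probe sets, 0 of the 11 passed an adjusted p of 0.05, each with an adjusted p = 0.91, and 0% of all probe sets passed. At an unadjusted p below 0.05 there were 0 of 11, beside 3.51% of all probe sets, and the groups failed to overlap for 0 of 11, beside 2.77% of all. Of the 11 differences 9 were below 0 and 2 above it, with a median of -0.24 beside -0.01 over all probe sets. As the genes were chosen with this comparison known, nothing is read from these counts.

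The size of the globin and Alas2 differences depended on single arrays, and their sign on HSU_Sor 3 and 4 jointly. Without HSU_Sor replicate 4 the Hbb difference was -0.70, and without HSU_Sor replicate 1 it was -1.76. Without HSU_Sor 3 and 4 together, which leaves 2 arrays in that group, Hbb differed by 0.10 ± 0.187 (SE), Hba-a3 by 0.34 ± 0.307 and Alas2 by 0.79 ± 1.02. The Hba-a3 difference ranged from -2.30 to -0.75 and that of Alas2 from -4.52 to -1.62 when 1 array at a time was left out.

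**Figure D3:**
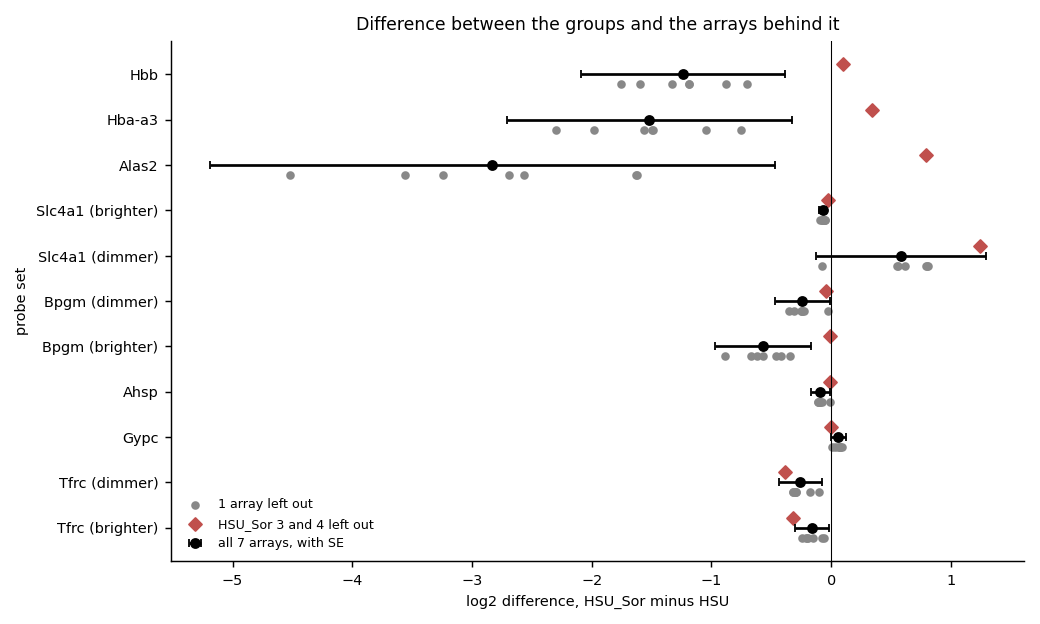
Log2 difference HSU_Sor minus HSU (x axis) of the 11 probe sets, with all 7 arrays and the SE of the fit (black), with each array left out in turn (grey) and with HSU_Sor 3 and 4 both left out (red). The Hbb difference was -1.24 with all arrays and 0.10 without these 2.

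The globins and Alas2 spread widely over the HSU_Sor arrays. Of the 15521 probe sets with a mean above the median, 0 had a larger SD over the HSU_Sor arrays than Alas2 (4.34), 8 had a larger one than Hba-a3 (2.21) and 39 a larger one than Hbb (1.56), where the median SD was 0.14. This is a description, since the members were chosen with these levels known. Over the HSU arrays the SDs were 0.72 for Alas2, 0.08 for Hba-a3 and 0.16 for Hbb, beside a median of 0.11.

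Other red cell, heme and iron genes were counted over 7 lists, with 96 probe sets of 69 genes that are no members. Of these 96, 0 passed the adjusted threshold in either direction, with the lowest adjusted p = 0.91. An unadjusted p below 0.05 was seen for 6, with 5 lower and 1 higher in HSU_Sor. This is 6.25%, beside 3.51% of all probe sets, and the 6 were 2 probe sets of Cp and 1 each of Aqp1, Add1, Hp and Ldb1, listed here after their values were seen.

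Among genes of the red cell membrane and skeleton, the 3 brightest of 15 measured besides the members were Aqp1, a water channel also made by lung endothelium, at -0.16 ± 0.05 (SE), the integrin-associated protein Cd47 at 0.17 ± 0.08 and adducin 1 (Add1) at -0.17 ± 0.04. Among red cell enzymes and late genes, Gpx1 and Cat, which remove peroxides, differed by -0.11 and -0.26, and the mitochondrial clearance receptor Bnip3l by 0.07. Each of these 6 is also made by many other cells. The list of iron genes had a median of -0.03 over 10 genes, with the ferritin receptor Ncoa4 at 0.05, the ferroxidase ceruloplasmin (Cp) at -0.22 and the metal transporter Slc39a8 at -0.14. The other Cp probe sets differed by -0.40 and -0.65, and for these the groups did not overlap. Genes that clear hemoglobin and heme had a median of -0.02 over 9 genes, the same as the 9 red cell enzymes and late genes, and membrane and skeleton genes one of -0.03. The 3 brightest of these, the scavenger receptor Lrp1, the biliverdin reductase Blvrb and the heme oxygenase Hmox2, differed by -0.08, 0.19 and -0.03. Haptoglobin (Hp), which binds free hemoglobin, was at 8.92, 8.66, 9.01 and 9.20 in HSU_Sor and at 9.87, 9.09 and 9.55 in HSU. Hmox1, the other heme oxygenase of the list, varied within both groups. It was at 5.61, 5.49, 6.53 and 8.20 in HSU_Sor and at 7.70, 5.62 and 7.13 in HSU.

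The 10 genes of red cell precursors and blood groups checked here gave little signal. Alas2, Fech and Tfrc, given above, were not among them. Klf1, the transcription factor that switches on beta globin, was between 2.04 and 2.08 on every array. Together Klf1, Gata1, Epor, Gfi1b, Hemgn, Rhag, Epb42, Kel, Xk and Tfr2 lay between 1.74 and 3.32, below the median of all probe sets, and were picked with their values known. Of 12 erythroid transcription factors and receptors, 5 were above the median, led by Lmo2, Ldb1 and Tal1, which endothelial and other blood cells use as well, with differences of 0.03, 0.09 and 0.14.

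Other blood cells did not share one pattern with the globins. Pf4, a platelet chemokine, was at 9.78, 11.07, 8.74 and 8.10 in HSU_Sor, against 9.44, 9.43 and 9.69 in HSU, lowest on HSU_Sor 3 and 4 as the globins were but highest on HSU_Sor 2. Nrgn was at 8.74, 8.59, 8.20 and 7.49 in HSU_Sor and at 7.89 to 8.23 in HSU, and the platelet receptor Clec1b at 8.15, 8.13, 7.59 and 8.13 in HSU_Sor and at 8.11 to 8.20 in HSU. Ppbp, the other defining platelet marker, stayed between 2.38 and 2.45 on all arrays. The neutrophil gene S100a8 was at 11.15, 10.76, 12.43 and 9.81 in HSU_Sor, against 9.80, 9.87 and 10.40 in HSU, and S100a9 at 12.25, 11.96, 13.21 and 10.58 against 10.84, 10.98 and 11.63. Both were highest on HSU_Sor 3, where Hbb was 4.33-fold below the lowest HSU array. On HSU_Sor 4, where Hbb was lowest, S100a9 had its lowest value of the 7 arrays. S100a8 was at 9.81 there, next to its lowest value, 9.80 on HSU 1b. Lcn2, the brightest neutrophil gene of the list, ran differently, at 13.03, 13.12, 13.15 and 14.01 in HSU_Sor and at 14.46, 13.22 and 14.16 in HSU, a difference of -0.61 ± 0.38 (SE). The T cell gene Cd3e lay between 7.41 and 7.56 in HSU_Sor and between 7.53 and 7.58 in HSU, and Cd3d between 2.13 and 2.18 on all arrays. The other bright T cell genes varied more, Cd247 at 7.40 to 7.62 in HSU_Sor and 7.60 to 8.38 in HSU, a difference of -0.46 ± 0.18 (SE) with an unadjusted p = 0.0453 and an adjusted p = 0.91 in limma, and Cd8a at 6.99 to 8.21 in HSU_Sor and 6.76 to 8.59 in HSU. Among B cell markers Fcrla was at 11.23 to 12.09 in HSU_Sor and 10.07 to 11.43 in HSU, and Blk and Cr2 lay below the median of all probe sets.

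The summed level of the platelet list, the log2 of its added linear values over 10 of 14 genes, was 10.84, 11.58, 10.23 and 9.93 on HSU_Sor 1 to 4 and 10.48 to 10.67 in HSU. It was thus below every HSU array on HSU_Sor 3 and 4, where the globins were low, and above every HSU array on HSU_Sor 1 and 2. That of the neutrophil list (9 of 15 genes) was 13.97 to 14.66 in HSU_Sor and 13.72 to 14.71 in HSU. Its brightest gene, Lcn2, weighed differently in it, at 14.46 on HSU 1b, where the sum was 14.71. On HSU_Sor 3, where the sum was 14.66, Lcn2 was at 13.15. The T cell list (10 of 10 genes) summed to 9.64 to 9.96 in HSU_Sor and 9.62 to 10.31 in HSU. The B cell list (6 of 9 genes) summed to 11.25 to 12.10 in HSU_Sor and 10.11 to 11.45 in HSU. Of those 6 B cell genes only 1, Fcrla, lay above the median of all probe sets, so that sum is close to Fcrla alone. Lung epithelial and endothelial markers (11 of 12 genes) summed to 17.83 to 17.95 in HSU_Sor and 17.84 to 17.93 in HSU. Proliferation genes (9 of 10 genes) summed to 11.04, 11.41, 9.55 and 10.28 on HSU_Sor 1 to 4 and to 9.16 to 10.40 in HSU. The sum was lower on HSU_Sor 3 and 4 than on HSU_Sor 1 and 2, as the globins were, but lay within the HSU range there, and the lowest sum was on HSU 3b. The 3 brightest, the mitotic kinase Cdk1, the topoisomerase Top2a and Mki67, differed by 1.07 ± 0.58, 0.37 ± 0.26 and 0.88 ± 0.88 (SE). The part of these cells, and of blood left after perfusion, in the globin values was not tested, and in whole lung RNA fewer red cells and less RNA per red cell cannot be told apart.

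**Figure D4:**
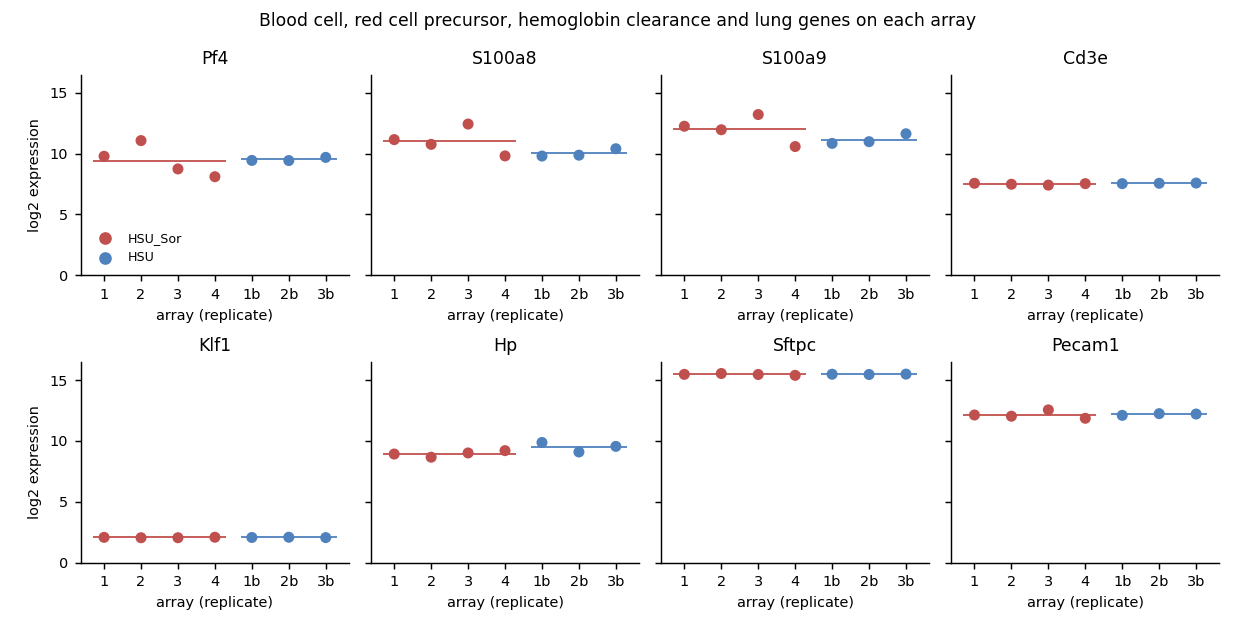
Log2 expression on each array of a platelet gene (Pf4), neutrophil genes (S100a8 and S100a9), a T cell gene (Cd3e), a red cell precursor gene (Klf1), a hemoglobin-binding protein (Hp) and lung genes (Sftpc and Pecam1), with HSU_Sor (red) left of HSU (blue) and group means as lines. Pf4 and S100a9 were lowest on HSU_Sor 4, at 8.10 and 10.58, while S100a8 was highest on HSU_Sor 3 at 12.43.

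Likeness to Hbb was measured as Pearson's correlation over the 7 arrays and is a description, since in Hbb HSU_Sor 3 and 4 stand apart from the other 5 arrays. Among the members, r was 0.996 for Hba-a3, 0.98 for Alas2, 0.95 and 0.545 for the probe sets of Bpgm, 0.811 and 0.386 for those of Slc4a1 and 0.543 for Ahsp. It was -0.63 for Gypc and -0.385 and -0.197 for Tfrc. The 10 other genes most like Hbb had r between 0.875 and 0.985. They were Stab1, Fech, Ccl21, Ndufa4l2, Cdc25b, Mkrn1, Postn, Fam3b, Bpifa5 and Vtn.

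Stab1, a scavenger receptor of macrophages and sinus endothelium, came first. It was at 9.55, 9.25, 8.07 and 7.79 in HSU_Sor, against 9.38, 9.58 and 9.81 in HSU, without the high value on HSU_Sor 1 that the globins showed. The cell cycle phosphatase Cdc25b was at 10.14, 8.40, 7.08 and 5.51 in HSU_Sor, against 8.40, 8.42 and 8.62 in HSU, with the extremes on the same arrays as Hba-a3 and the same range of 4.63. Ccl21, a chemokine of lymphatic vessels, was at 11.67, 11.53, 10.58 and 10.19 in HSU_Sor, against 11.53, 11.30 and 12.06 in HSU. The Mkrn1 probe set named here was at 6.43, 5.99, 5.36 and 5.50 in HSU_Sor and at 6.01, 6.35 and 6.02 in HSU, and another of that gene was highest on HSU_Sor 1, at 8.80, 7.20 and 7.95 on HSU_Sor 2 to 4 and at 8.22, 8.43 and 8.43 in HSU, so both were lower on HSU_Sor 3 and 4 than on any HSU array. The brightest Mkrn1 probe set stayed between 9.99 and 10.37 in HSU_Sor and between 10.19 and 10.42 in HSU, and the remaining one between 8.72 and 9.09 in HSU_Sor and between 8.77 and 8.85 in HSU.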

How the data were processed

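The values are the authors' log2 summaries of each probe set, deposited after their normalization between arrays. RMA and GCRMA are both named in the submitters' processing notes, without saying which produced this table. Trizol-extracted RNA was labelled with biotin, per the labels' protocols.

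The 57 control probe sets were left out. By the platform annotation 20826 of the other 31042 carry a single gene symbol, 436 more than 1 and 9780 no symbol, and gene IDs of all 11 member probe sets matched the same symbol in RefSeq (GRCr8). HSU_Sor minus HSU was fitted with limma 3.58.1 (lmFit and eBayes, R 4.3.3) on all 31042 probe sets, two-sided, adjusted by the Benjamini-Hochberg method and called at 0.05. The fit was tested on simulated data. Named genes were all members, the 3 brightest of each list with its defining markers, and the 10 genes most like Hbb among probe sets above the median with a range of at least 1. Other genes named were picked with their values known. Members and lists were chosen with earlier results of these data known. A gene in a list stands for its brightest probe set. Alternatives were array weights, quantile normalization, filters at the median and the 75th percentile, a robust spread with an intensity trend, centring on array medians, the mean of probe sets per gene, each array left out, and HSU_Sor 3 and 4 both left out.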

Additional observations from a re-analysis of the deposited data

Results flagged for a closer look

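In 11 of 67 probe sets examined, 1 HSU_Sor array lay farther from the other 3 than Dixon's 95% critical value for 4 samples allows. For independent normal values, chance gives such a gap in about 5% of groups. The 67 share the same 4 arrays and include genes picked with their values known, so 11 of 67 cannot be set against 5%. Of the 11, 3 were members: the dimmer Slc4a1 probe set with 4.66 on HSU_Sor 1, Ahsp with 2.95 on HSU_Sor 3 and the dimmer Tfrc probe set with 6.52 on HSU_Sor 1. Hbb, Hba-a3 and Alas2 are not among them, as their low values came on 2 arrays. On HSU_Sor 4 the gap was seen for Tal1 (9.06), Cp (12.04), Lcn2 (14.01) and Vwf (12.00). On HSU_Sor 2 it was seen for Alad (10.94), Cd247 (7.40) and Aqp5 (13.30), and on HSU_Sor 3 for Clec1b (7.59).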

How the results depend on the processing

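The count of member probe sets past the adjusted threshold was 0 under every alternative run, as was that of other red cell and iron probe sets. The lowest adjusted p of a member was 0.117, for the brighter Tfrc probe set with array weights, a setting whose weights did not fully converge. Of 157 recomputed member differences, 150 kept their sign. The other 7 were Hbb (0.10), Hba-a3 (0.34), Alas2 (0.79) and Gypc (-0.0023) without HSU_Sor 3 and 4 together, Gypc with array weights (-0.01), Slc4a1 as the mean of both probe sets (0.26), and its dimmer probe set, which ranged from -0.08 to 0.81 with 1 array left out. Array weights gave -0.54 for Hbb, -0.69 for Hba-a3 and -0.34 for Alas2. The Hbb difference ranged from -1.76 to -0.70 with 1 array left out. Over all probe sets, 0 passed the threshold, against 33 with array weights, 6 with the 75th percentile filter, 2 without HSU_Sor 3 and 4, and between 0 and 10 with 1 array left out (10 without HSU 3b, 1 without HSU 2b). Why these counts differ was not tested. No paired analysis was possible because the replicate numbers of HSU carry a letter and pair with none of HSU_Sor. Signal near the floor limits Slc4a1, Ahsp and the low arrays of Alas2.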
